A study of Homo sapiens with 6 samples.

Results

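Catalase breaks down hydrogen peroxide, glutathione reductase restores glutathione with NADPH, and transaldolase and transketolase act in the pentose phosphate pathway. These 4 enzymes are described here in Hs578T cells given an siRNA against CSRP2. They are encoded by CAT, GSR, TALDO1 and TKT, 4 of the 14884 genes that could be named on the arrays. The genes were picked by symbol, with their difference between the groups already known, so that difference is given as a description. Whether it passed the threshold of the fit over all genes supports nothing. Each was measured by 1 probe set, so no choice among probe sets entered: 16723546 for CAT, 17076063 for GSR, 16720318 for TALDO1 and 16955064 for TKT.

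Hs578T is an established line from a human breast tumour whose cells look mesenchymal, and the labels state no other alteration. One group, siControl, received a non-targeting siRNA and the other, siCSRP2, an siRNA directed at CSRP2, a LIM domain protein that binds actin. Both were transfected by lipofection and moved to smaller wells after 24 h, and total RNA was taken 48 h later for Affymetrix HuGene 2.0 arrays, 3 per group. Whether replicates were grown as separate cultures is not stated, so the p-values reflect array-to-array spread alone, possibly technical, and 3 arrays a group limit precision throughout.

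Catalase splits hydrogen peroxide into water and oxygen inside peroxisomes. Glutathione reductase uses NADPH to return oxidised glutathione to its reduced form, which glutathione peroxidases spend on peroxides. The pentose phosphate pathway supplies much of the cell's NADPH in its oxidative steps, and transaldolase and transketolase carry sugar phosphates between those steps and glycolysis in its non-oxidative steps. GSR, TALDO1 and TKT are known targets of NRF2, the transcription factor encoded by NFE2L2 that KEAP1 holds in check, and catalase has been described as a target of forkhead and PPAR factors.

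The sequences upstream of CAT, TALDO1 and TKT are shown as examples, since these genes were lower on the same arrays and many transcription factors bind near start sites. The window of GSR, which was lower as well, was not used here. Each is the stretch of 250 bases before the RefSeq start in GRCh38.p14, 5′ to 3′ on the gene's own strand. Capitals mark every match, on either strand, to the letters of a GC box (GGGCGG) or a CCAAT box (CCAAT). The CAT window is chr11:34438684-34438933 (plus strand), the TALDO1 window chr11:747214-747463 (plus strand) and the TKT window chr3:53256023-53256272 (minus strand).
CAT: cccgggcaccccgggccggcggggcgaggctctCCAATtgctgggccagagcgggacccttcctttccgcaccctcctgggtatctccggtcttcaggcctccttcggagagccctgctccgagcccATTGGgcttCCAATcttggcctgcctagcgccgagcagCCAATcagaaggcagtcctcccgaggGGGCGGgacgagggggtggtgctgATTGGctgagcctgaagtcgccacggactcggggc
TALDO1: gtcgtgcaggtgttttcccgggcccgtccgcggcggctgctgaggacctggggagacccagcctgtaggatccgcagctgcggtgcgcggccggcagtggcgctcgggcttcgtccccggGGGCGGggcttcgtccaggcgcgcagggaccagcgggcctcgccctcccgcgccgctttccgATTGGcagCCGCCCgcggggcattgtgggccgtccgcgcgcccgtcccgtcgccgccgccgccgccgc
TKT: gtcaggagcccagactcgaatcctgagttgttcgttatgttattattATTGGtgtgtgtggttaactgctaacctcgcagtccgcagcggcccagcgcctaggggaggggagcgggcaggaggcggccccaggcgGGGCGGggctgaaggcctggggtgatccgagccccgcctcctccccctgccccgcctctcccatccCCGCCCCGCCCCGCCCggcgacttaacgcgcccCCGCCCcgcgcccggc

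All of these windows hold both kinds of box, in different numbers. CAT has 5 CCAAT matches, the nearest beginning 35 bases before the start, and 1 GC box at 59 bases. Only 0.363% of 27305 promoter windows of this length hold 5 or more CCAAT matches, while 33% hold at least 1. TKT has 5 GC boxes, a number reached by 4.2% of windows; 3 of them lie end to end, each sharing 1 base with the next, and its single CCAAT match begins 203 bases before the start. TALDO1 has 2 GC boxes and 1 CCAAT match. The core of the antioxidant response element that NRF2 binds (TGACNNNGC, any base at N) was found in none of the windows and in 11% of all windows, and the same was true of a forkhead site (TGTTTAC, 2.98% of windows) and a TATA box (TATAAA, 11.1%). These are matches of letters within a short window and say nothing of binding, nor of elements elsewhere. Of the 50 measured genes whose window holds 5 or more CCAAT matches, 8 fell (CAT, picked for its fall, among them) and 1 rose by the test given below. Of all genes 6.54% fell and 0.8% rose, and of genes brighter than the median 12.7% fell. The median log2 difference of the 50 was -0.15, beside 0.02 over all genes and -0.15 over the brighter ones. The cut of 5 is CAT's own count, so these values are a description only.

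The arrays labelled siCSRP2 are taken by their label, since the target did not check it: CSRP2 differed by -0.26 on the log2 scale (SE 0.26, limma, adjusted p = 0.583) and its groups overlapped. The array siControl 3 stood apart from the other controls, being the lowest control for 80.5% of the 974 genes that fell and for 41.2% of all genes, and values that rest on it are given with and without it. The mesenchymal markers of the line were bright, with VIM at 8.04 and 7.22, FN1 at 11.1 and 10.5, AXL at 8.32 and 6.59 and CD44 at 8.29 and 7.97 as siControl and siCSRP2 means. ESR1, PGR, KRT19 and ALB, markers of luminal cells and of catalase-rich hepatocytes, had group means between 2.40 and 2.91, under the median gene's mean (2.99), and EPCAM reached 3.21 and 3.34. In limma's fit over all genes with Benjamini-Hochberg adjustment, past the threshold means an adjusted p below 0.05: 974 of the 14884 genes fell (6.54%) and 119 rose (0.8%). Without siControl 3, 2193 genes fell (14.7%). Where that array is the lowest control, leaving it out widens a fall by construction, so a call gained that way is not independent evidence. No gene named below that passed without siControl 3 but not as reported passed without siControl 1 or siControl 2. No background value was at hand, so where a group lies under the median gene's mean, as ECI2, GSTA4, MSRB1, PRDX2 and MCM2 did in siCSRP2, a fold may understate the change. Bright genes were called more often, and 15.4% of the 1923 genes at least as bright as CAT, the dimmest of the 4, fell.

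**Figure D1:**
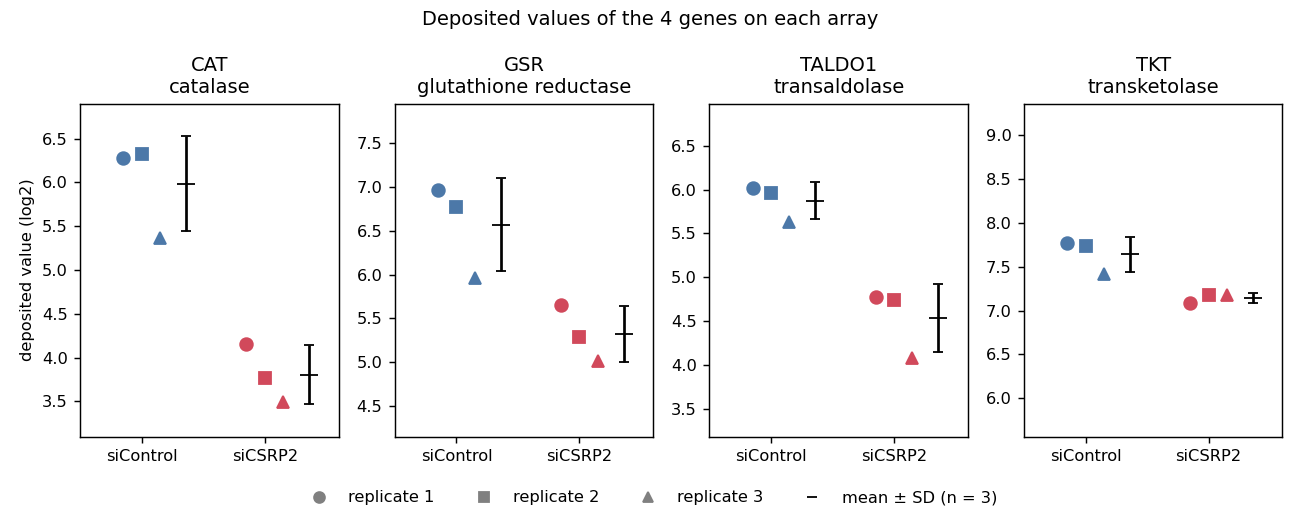
Deposited log2 values (vertical axis, each panel spanning the same log2 range) of CAT, GSR, TALDO1 and TKT on the 3 siControl and 3 siCSRP2 arrays, with a symbol for each replicate number and the mean ± SD (n = 3) beside each group. In every panel the lowest siControl array, siControl 3, lies above the highest siCSRP2 array, by 1.21 for CAT and 0.24 for TKT.

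Catalase was lower by the widest margin of the 4. CAT measured 6.27, 6.32 and 5.37 in siControl 1, 2 and 3, and 4.16, 3.77 and 3.50 in siCSRP2 1, 2 and 3. The groups did not overlap, and the lowest control stood 1.21 above the highest siCSRP2 array, a gap of 2.31-fold. The means were 5.99 ± 0.54 and 3.81 ± 0.33 (SD, n = 3), a log2 difference of -2.18 (SE 0.27, 95% interval -2.79 to -1.57), or 4.53-fold. This was the 9th largest fall of all genes. Without siControl 3 the difference was -2.49 (SE 0.18), or 5.62-fold. Because RNA was taken from whole wells, less catalase RNA in each cell and fewer cells expressing it cannot be told apart, and the same holds for every gene below.

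Glutathione reductase was lower by a smaller amount. GSR measured 6.97, 6.78 and 5.96 in siControl and 5.66, 5.29 and 5.02 in siCSRP2. siControl 3 lay 0.31 above siCSRP2 1, nearer to it than to either other control, so that the groups were separate by a margin smaller than the spread within them. The means were 6.57 ± 0.53 and 5.32 ± 0.32 (SD, n = 3), a log2 difference of -1.25 (SE 0.26, 95% interval -1.84 to -0.65) or 2.37-fold, and 2.93-fold without siControl 3 (-1.55, SE 0.18).

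The enzymes of the non-oxidative pentose phosphate steps differed in size from each other. TALDO1 measured 6.02, 5.96 and 5.63 in siControl and 4.78, 4.74 and 4.08 in siCSRP2. Its controls lay close together (5.87 ± 0.21) and siCSRP2 3 pulled its group down (4.53 ± 0.39, SD, n = 3). The log2 difference was -1.34 (SE 0.20, 95% interval -1.79 to -0.88), or 2.53-fold. TKT measured 7.77, 7.74 and 7.41 in siControl and 7.08, 7.17 and 7.18 in siCSRP2. The TKT difference was the smallest of the 4, -0.50 (SE 0.13, 95% interval -0.79 to -0.21) or 1.41-fold, between means of 7.64 ± 0.20 and 7.14 ± 0.05 (SD, n = 3). Its interval did not reach those of CAT or TALDO1, while 10.9% of all genes fell further. Without siControl 3 the differences were -1.46 (SE 0.20) for TALDO1 and -0.61 (SE 0.12) for TKT.

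The 4 genes shared their lowest control, while TKT departed from the others among the siCSRP2 arrays. siControl 3 was the lowest control for each, by 0.62 below the group mean for CAT, 0.60 for GSR, 0.24 for TALDO1 and 0.23 for TKT. Among the siCSRP2 arrays, values fell from siCSRP2 1 to 2 to 3 for CAT, GSR and TALDO1, an order held by 22.4% of all genes and 30.3% of those that fell. TKT was highest on siCSRP2 3 and lowest on siCSRP2 1, but these values lay between 7.08 and 7.18, so their order carries little weight. Compared within replicate numbers, each gene was lower in siCSRP2 in 3 of 3 pairs, from -1.87 to -2.56 for CAT, -0.95 to -1.48 for GSR, -1.22 to -1.55 for TALDO1 and -0.24 to -0.69 for TKT.

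All 4 passed the threshold, beside 7.34% of all genes in either direction, a count that follows from how they were picked. How often each passed differed: CAT did under each of 14 other settings, TALDO1 under 12, GSR under 9 and TKT under 6. GSR was lost after quantile normalization and when siControl 1, siControl 2, siCSRP2 2 or siCSRP2 3 was left out. TALDO1 was lost without siControl 1 or siControl 2. TKT, just past the threshold by the reported fit, was lost after quantile normalization or cyclic loess, with a trended and robust prior and in each fit without 1 array except that without siControl 3. The differences themselves moved less, between 4.04-fold and 5.62-fold for CAT, 2.07-fold and 2.93-fold for GSR, 2.16-fold and 2.75-fold for TALDO1 and 1.33-fold and 1.53-fold for TKT.

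**Figure D2:**
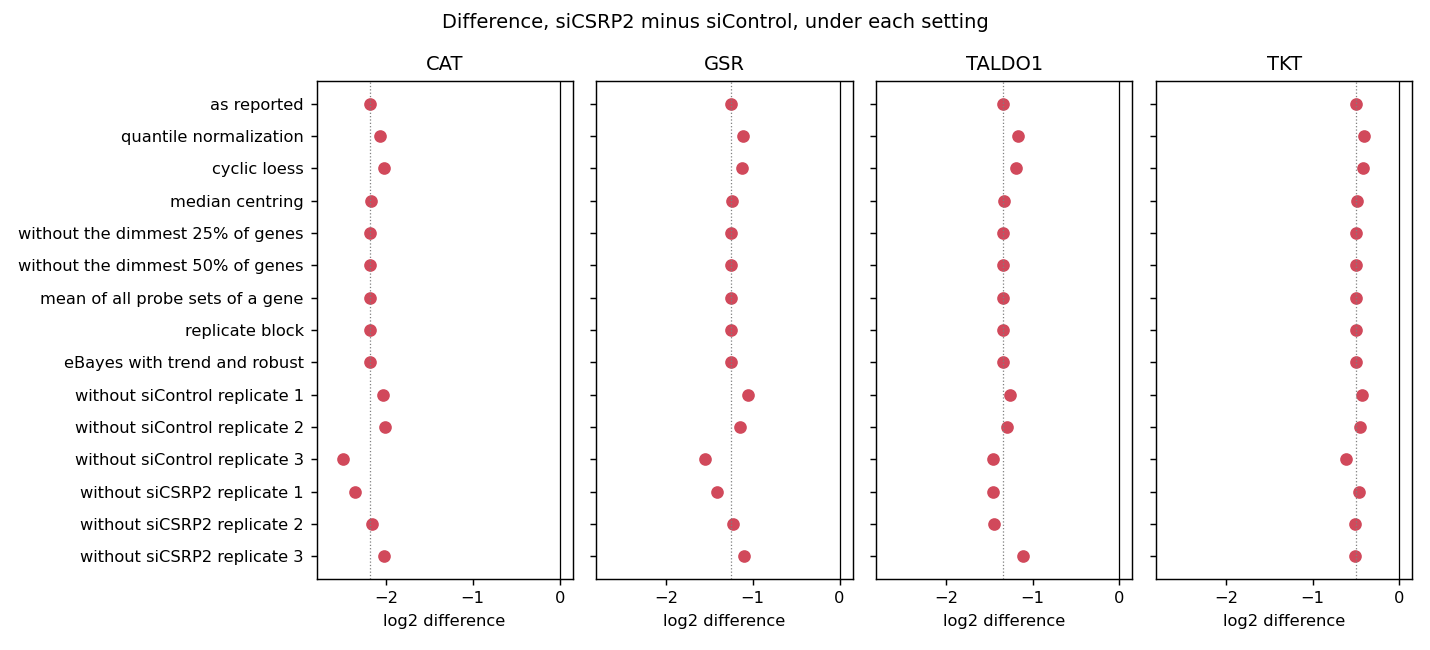
Log2 difference, siCSRP2 minus siControl (horizontal axis), of CAT, GSR, TALDO1 and TKT as reported and under 14 other settings (rows); the dotted line marks the reported value. Every point lies below 0, with CAT between -2.49 and -2.01 and TKT between -0.61 and -0.41.

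The other measured enzymes of the pentose phosphate pathway did not pass the test, which 7.34% of all genes did in either direction. The 3 genes of the oxidative steps had a median difference of -0.40 and the 8 others of the non-oxidative steps one of -0.16, beside 0.02 over all genes. Without siControl 3, 2 and 3 of them fell, beside 14.7% of all genes. PGD, which catalyses the later of the NADPH-yielding steps, measured 6.34, 6.22 and 5.57 in siControl and 5.50, 5.74 and 5.70 in siCSRP2. Its groups overlapped through siControl 3 alone (difference -0.40, limma, adjusted p = 0.265), and without that array PGD fell at an adjusted p of 0.00967. The lactonase PGLS (-0.60, adjusted p = 0.142, limma) was likewise past the threshold without siControl 3 (adjusted p = 0.0231). It was not past it without siControl 1 (0.357) or siControl 2 (0.41).

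Of the other non-oxidative genes brighter than the median, the largest differences were those of PGM2, which handles ribose and deoxyribose phosphates (-0.61, adjusted p = 0.0948, limma), PRPS1, which makes the ribose donor for nucleotides (-0.61, 0.0654), and the epimerase RPE, which was higher (0.31, 0.161). PGM2 and PRPS1 passed with the replicate block (adjusted p = 0.00894 and 0.0126, limma) and without siControl 3 (0.0101 and 0.00474). In all, PRPS1 passed in 3 of the 14 other settings. The transketolase relative TKTL1 lay below the median of all gene means on every array, from 2.24 to 2.59, with a difference of -0.09 (adjusted p = 0.717, limma). Proliferating cells draw on this pathway for ribose. Of 6 proliferation markers 4 fell, beside 6.54% of all genes and 12.7% of those brighter than the median: TOP2A (-1.36), CCNA2 (-1.51), PCNA (-1.17) and MCM2 (-0.69). MKI67 (-0.66) and CCNB1 (-0.82) did not pass by the reported fit. Both of these passed with the replicate block (adjusted p = 0.0233 and 0.00975, limma) and without siControl 3 (0.0151 and 0.00561). The markers' part in the TALDO1 and TKT differences was not tested.

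Other sources of NADPH included a mitochondrial gene with a fall close to that of GSR. NNT, the transhydrogenase that makes NADPH at the inner membrane, measured 5.89, 5.72 and 4.69 in siControl and 4.43, 4.24 and 4.14 in siCSRP2, a fall of 2.24-fold (log2 difference -1.16, SE 0.28, limma, adjusted p = 0.0427). siControl 3 lay nearer to the siCSRP2 arrays than to its own group, and with it left out the adjusted p was 0.000343. Of the 6 fits without 1 array, this was the only 1 in which NNT passed. NNT was also lost after quantile normalization and cyclic loess, and passed in 7 of the 14 other settings. NADK2, which phosphorylates NAD in mitochondria, fell 1.67-fold (-0.74, SE 0.18, adjusted p = 0.0427, limma). Its cytosolic counterpart NADK (-0.31, adjusted p = 0.186, limma), MTHFD2L (-0.28, 0.138) and MTHFD1L (-0.11, 0.686) did not pass. That left 2 of the 5 measured genes of this list past the threshold, both lower (40%, beside 6.54% of all genes). All 5 were brighter than the median, and 12.7% of all such genes fell.

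In the glutathione cycle beyond GSR, 1 of 5 measured genes of synthesis and breakdown fell (20%, beside 6.54% of all genes). Of the 4 brighter than the median this was 25%, beside 12.7% of all such genes. GGCT, which breaks down glutathione's gamma-glutamyl products, fell 1.49-fold (-0.58, SE 0.13, adjusted p = 0.0368, limma). The synthetase GSS measured 4.45, 4.35 and 3.78 in siControl and 3.80, 3.51 and 3.43 in siCSRP2, so that siControl 3 fell within the siCSRP2 range (-0.61, adjusted p = 0.0868, limma, 0.0151 with the replicate block and 0.00496 without siControl 3). GGT7 (-0.05) and GGT5 (-0.03) differed by less than their standard errors of 0.14 and 0.11. The median of these 5 genes was -0.05, and 0.02 and 0.03 after quantile normalization and cyclic loess, so it has no settled direction. The subunits of the rate-limiting enzyme, GCLC and GCLM, were not analysed here.

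Of 12 measured glutathione peroxidases and glutaredoxins, 1 fell (8.33%, beside 6.54% of all genes). Of the 8 brighter than the median this was 12.5%, beside 12.7% of all such genes. GPX1, the main cytosolic peroxidase that spends the glutathione GSR restores, measured 5.04, 4.76 and 4.55 in siControl and 4.18, 3.90 and 3.91 in siCSRP2, without overlap. GPX1 fell 1.72-fold (-0.79, SE 0.15, limma, adjusted p = 0.0215). GPX8, of the endoplasmic reticulum (-0.84, adjusted p = 0.0931), the mitochondrial glutaredoxin GLRX2 (-0.81, 0.0572) and GPX4, which reduces lipid peroxides (-0.42, 0.156), did not pass, though GPX8 did without siControl 3 (adjusted p = 0.00242, limma) and GLRX2 did with the replicate block (0.011) and without siControl 3 (0.00573). In all, GLRX2 passed in 6 of the 14 other settings. Of 20 glutathione S-transferases, 2 fell (10%, beside 6.54% of all genes). Both were among the 11 brighter than the median, 18.2% of these beside 12.7% of all such genes. They were GSTA4, which acts on 4-hydroxynonenal, from 3.64 to 2.61 (-1.03, SE 0.15, adjusted p = 0.00926, limma), and GSTM3 (-0.55, adjusted p = 0.0423). GSTM4 (-1.03, 0.0624), GSTK1 (-0.87, 0.128) and GSTP1 (-0.46, 0.229) did not pass. GSTM4 and GSTK1 did without siControl 3 (adjusted p = 0.000966 and 0.00242, limma), and all of these 3 did with the replicate block (0.00622, 0.0152 and 0.0249). In all, GSTM4 passed in 6 of the 14 other settings. Transferases of 1 class are near copies of each other, so probe sets of this family may share signal.

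Thioredoxins, peroxiredoxins and the genes listed with them had 4 falls (20%, beside 6.54% of all genes) and no rise among 20 measured genes. All 4 were among the 16 brighter than the median, 25% of these beside 12.7% of all such genes. They were MSRB1, a selenoprotein that repairs oxidised methionine (-0.94, SE 0.20), mitochondrial thioredoxin TXN2 (-0.91, SE 0.22), PRDX2 (-0.68, SE 0.16) and PRDX6 (-0.58, SE 0.14), with adjusted p from 0.0298 to 0.0457 in limma. TXNRD1, the NRF2-driven cytosolic reductase that resembles GSR in structure, measured 5.89, 5.52 and 5.53 in siControl and 5.50, 5.21 and 5.31 in siCSRP2. Its groups were separated by 0.01 and the difference of -0.30 (SE 0.14) did not pass (adjusted p = 0.234, limma), nor did it under any of the 14 other settings. PRDX1 (-0.31, adjusted p = 0.253), the mitochondrial PRDX3 (-0.85, 0.0643), SRXN1 (-0.51, 0.147) and TXNIP (-0.49, 0.0526) did not pass either. PRDX1, PRDX3 and SRXN1 did without siControl 3 (adjusted p = 0.035, 0.00168 and 0.013, limma), and PRDX3 and TXNIP did with the replicate block (0.0108 and 0.0227). In all, PRDX3 passed in 3 of the 14 other settings. TXNIP also passed with either other between-array normalization, quantile or cyclic loess, and with a trended robust prior. The list median was -0.31.

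**Figure D3:**
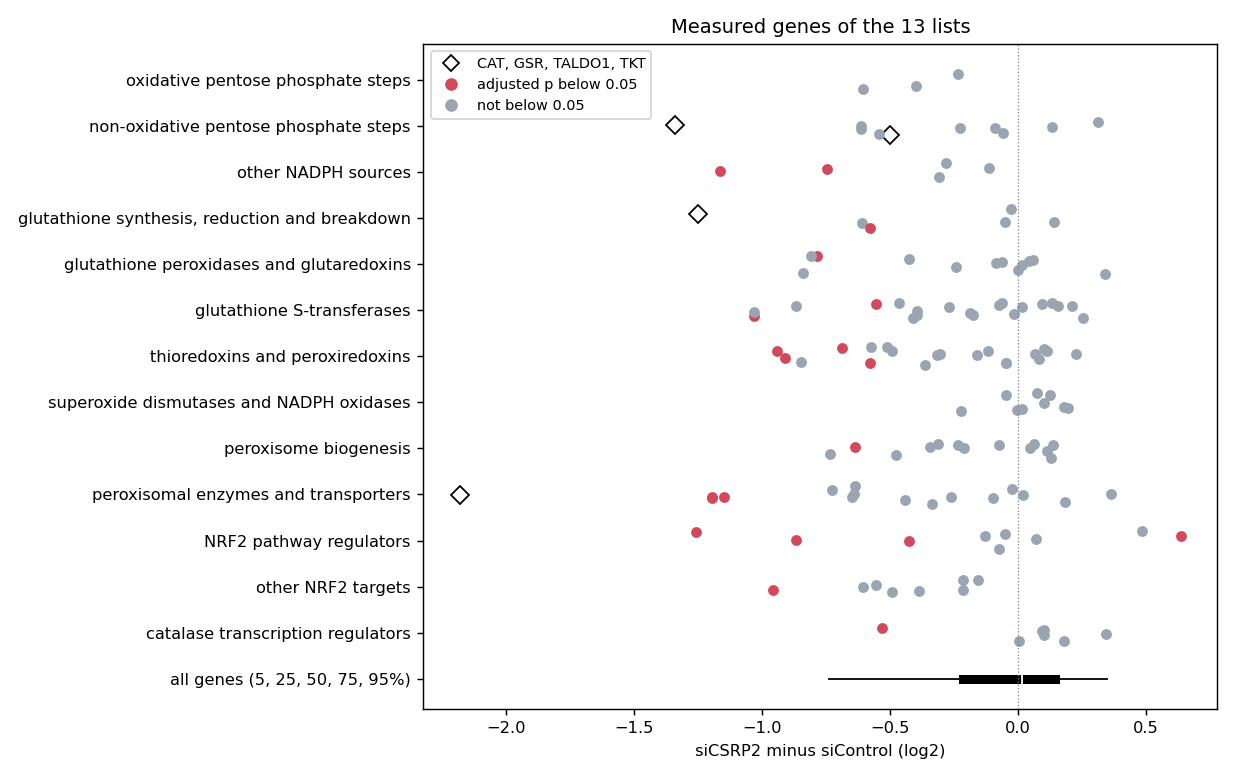
Log2 difference, siCSRP2 minus siControl (horizontal axis), of each measured gene in the 13 lists (rows); diamonds are CAT, GSR, TALDO1 and TKT, red points other genes with an adjusted p below 0.05 in limma, grey points the rest, and the bar gives percentiles of all 14884 genes. CAT is the leftmost point at -2.18, and MAFF, at 0.64, is the only red point above 0.

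Peroxisomal enzymes had falls beside catalase. Of 15 measured, 3 fell (20%, beside 6.54% of all genes) and none rose, with a median of -0.44 over the 15. All 3 were among the 10 brighter than the median, 30% of these beside 12.7% of all such genes. ECI2, an isomerase for unsaturated fatty acids, measured 4.35, 4.16 and 3.78 in siControl and 2.95, 2.87 and 2.89 in siCSRP2, a fall of 2.29-fold (-1.19, SE 0.15, limma, adjusted p = 0.00649) to values under the median gene's mean, which may understate it. GNPAT, which starts ether lipid synthesis, measured 5.67, 5.25 and 4.84 against 4.29, 4.20 and 3.69 and fell 2.29-fold (-1.19, SE 0.23, adjusted p = 0.0215, limma). HSD17B4, the bifunctional enzyme of peroxisomal beta-oxidation, fell 2.21-fold (-1.15, SE 0.21, adjusted p = 0.018, limma). For each of these 3 the groups were separate, as for CAT, and 7 of the 15 were separate and lower beside 16.2% of all genes, and 1 separate and higher beside 11.5%. That gene was the oxidase PIPOX (0.37, adjusted p = 0.0842, limma), named after its values were seen. AGPS, the next enzyme of ether lipid synthesis (-0.72, adjusted p = 0.158), FAR1 (-0.65, 0.119) and PHYH (-0.64, 0.0842) did not pass. AGPS and PHYH did with the replicate block (adjusted p = 0.0217 and 0.019, limma) and without siControl 3 (0.0016 and 0.00426).

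The machinery that builds peroxisomes gave 1 call in 13 genes (7.69%, beside 6.54% of all genes that fell). Of the 8 brighter than the median this was 12.5%, beside 12.7% of all such genes. The gene called was PEX19, the chaperone of peroxisomal membrane proteins (-0.64, SE 0.15, adjusted p = 0.0427, limma). PEX3, the docking partner of PEX19 (-0.73, adjusted p = 0.075, limma), PEX26 (-0.47, 0.0649) and PEX2 (-0.31, 0.112) did not pass. PEX3 and PEX26 did with the replicate block (adjusted p = 0.00716 and 0.0465, limma) and without siControl 3 (0.0215 and 0.0426). In all, PEX3 passed in 4 of the 14 other settings. The receptors that carry enzymes into the peroxisome, PEX5 (0.05, SE 0.11) and PEX7 (-0.07, SE 0.12), lay below the median of all gene means. No member of the list of superoxide dismutases and NADPH oxidases passed among 9 measured, beside 7.34% of all genes in either direction. Only 2 of the 9 had a mean above the median of all gene means, NOXO1 (difference 0.08) and NOXA1 (-0.05). SOD1 and SOD2 were not analysed here.

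Genes of the NRF2 pathway list, which holds NRF2 itself and related factors beside its regulators, moved in both directions. KEAP1, the adaptor that marks NRF2 for degradation, measured 4.42, 4.77 and 3.89 in siControl and 3.11, 3.33 and 2.87 in siCSRP2. KEAP1 fell 2.39-fold (-1.26, SE 0.22, limma, adjusted p = 0.0159), without overlap. NFE2L2, which encodes NRF2 itself, measured 5.50, 5.74 and 5.65 in siControl and 5.71, 5.67 and 5.29 in siCSRP2. Its groups overlapped, and the difference of -0.07 (SE 0.14, 95% interval -0.39 to 0.25, adjusted p = 0.794, limma) leaves room for a change of either sign. The related factors NFE2L3 (-0.87, SE 0.13, adjusted p = 0.0108) and NFE2L1 (-0.42, SE 0.10, adjusted p = 0.0388, limma) fell.

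MAFF, a small MAF protein that pairs with NRF2 on DNA, was the only 1 of the other list genes that rose, from 4.40, 4.31 and 4.80 in siControl to 5.09, 5.33 and 5.01 in siCSRP2. The rise was 1.56-fold (0.64, SE 0.16, limma, adjusted p = 0.0444). Its relative MAFG (0.48, adjusted p = 0.265), BTRC (-0.13, 0.667) and the ubiquitin ligase scaffold CUL3 (0.07, 0.759) did not pass. Of 9 measured genes of this list, all brighter than the median, 3 were lower (33.3%) and 1 higher, beside 12.7% and 1.41% of all such genes. The lower ones were KEAP1 and the related factors NFE2L1 and NFE2L3. The list median was -0.07, and 0.04 and 0.05 after quantile normalization and cyclic loess.

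Among 8 other measured NRF2 targets, 1 passed (12.5%, beside 6.54% of all genes that fell). Of the 7 brighter than the median this was 14.3%, beside 12.7% of all such genes. The gene that passed was the carbonyl reductase CBR1, which fell 1.94-fold (-0.96, SE 0.16, limma, adjusted p = 0.0134). HMOX1, the haem oxygenase induced by NRF2 and held down by BACH1, measured 4.30, 4.44 and 4.60 in siControl and 4.40, 4.45 and 3.85 in siCSRP2. The HMOX1 groups overlapped (-0.21, adjusted p = 0.501, limma). TRIM16 (-0.61, adjusted p = 0.128), the biliverdin reductase BLVRB (-0.55, 0.171) and UGDH, which makes glucuronic acid donors (-0.49, 0.0886), did not pass, although TRIM16 and UGDH did with the replicate block (0.0444 and 0.0237, limma) and UGDH without siControl 3 (0.0429). The median of the 8 was -0.44. NQO1 and BACH1 were not analysed here.

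Of 7 measured factors described as regulators of catalase, 1 fell (14.3%, beside 6.54% of all genes) and none rose. Of the 5 brighter than the median this was 20%, beside 12.7% of all such genes. PPARG, a nuclear receptor of lipid metabolism, measured 3.95, 4.04 and 3.67 in siControl and 3.30, 3.36 and 3.41 in siCSRP2. PPARG fell 1.44-fold (-0.53, SE 0.12, limma, adjusted p = 0.0408). FOXO3 (0.09, adjusted p = 0.65, limma), PPARA (0.35, 0.309), SIRT1 (0.18, 0.718) and PPARD (0.10, 0.647) did not pass, and the list median was 0.10. The probe set that the platform annotation names FOXO3 (16831905) had a mean of 2.88 over all arrays. That lies below the median gene's mean (2.99), so a change in it could be missed. Whether this probe set reads FOXO3 itself or a related sequence was not checked.

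**Figure D4:**
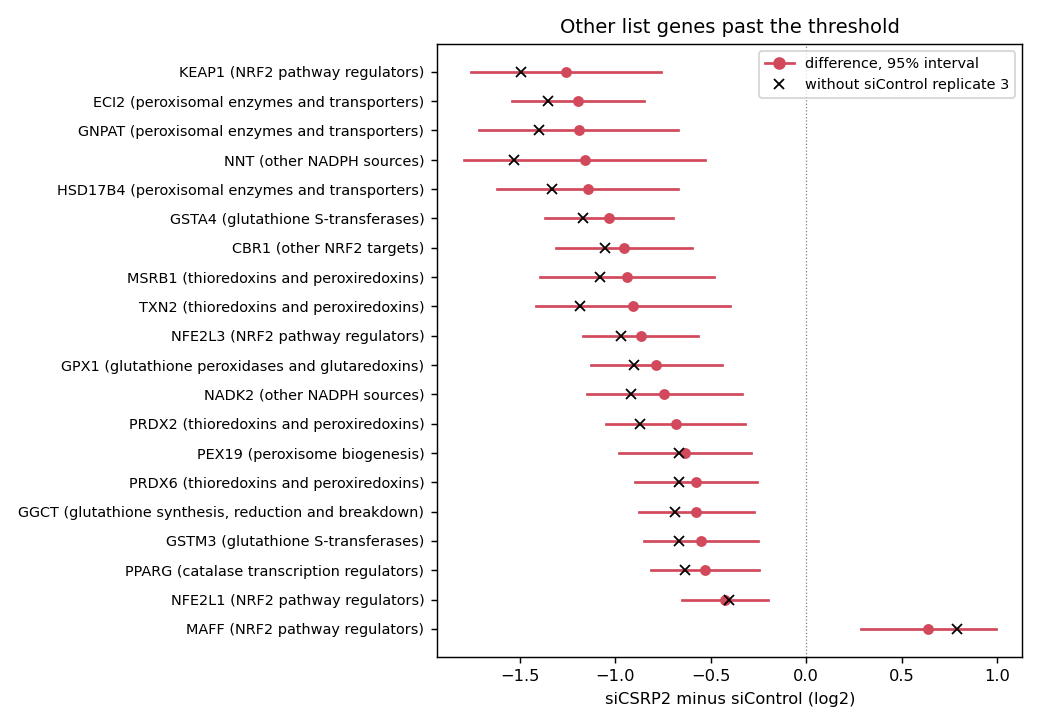
Log2 difference, siCSRP2 minus siControl, with 95% interval (horizontal axis) of the 20 other list genes past the threshold in limma (rows, with their list), and the same difference without siControl 3 (crosses). 19 lie below 0, led by KEAP1 at -1.26, and MAFF lies above 0.

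Over all 13 lists, 134 genes other than CAT, GSR, TALDO1 and TKT were measured, of which 19 fell (14.2%) and 1 rose, beside 6.54% and 0.8% of all genes. All 19 were brighter than the median of all genes, and of the 92 list genes that bright 20.7% fell, beside 12.7% of all such genes. The median difference was -0.20 over the 134, and -0.39 over the 92 brighter ones beside -0.15 over all brighter genes. The lists were chosen with earlier results of these arrays known, so these shares are no independent evidence. The calls rested on few arrays: 2 of the 20 held when siControl 1, siControl 2 or siCSRP2 2 was left out, 4 when siCSRP2 3 was and 12 when siCSRP2 1 was, and 12 with either quantile or cyclic loess normalization. ECI2 and GSTA4 were past the threshold in each of the 6 fits that left out 1 array. Without siControl 3, all 20 held and 43 of the 134 fell, beside 14.7% of all genes, and 38 fell with the replicate block, beside 13.1%.

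The genes whose values followed each enzyme most closely over the 6 arrays, among 7438 other genes brighter than the median, were of varied kinds. Pearson's r is given as a measure of likeness only, since both groups contribute to it. For CAT they were CASD1, a sialic acid O-acetyltransferase (r = 0.9997), COPS6, a COP9 signalosome subunit (0.998), and CNOT11, of the CCR4-NOT complex (0.998). For GSR they were TCEAL8 (0.999), the Integrator subunit INTS8 (0.998) and the chloride channel gene CLCC1 (0.997). LHFPL6 (0.999), NICN1 (0.996) and the read-through transcript SYNJ2BP-COX16 (0.996) were closest to TALDO1. For TKT they were COMMD8 (0.998), the microtubule-binding EML4 (0.998) and VCP, a segregase of the ubiquitin system (0.997). All 12 fell, which follows from picking them for likeness to genes that were lower in siCSRP2. Their log2 differences ran from -1.19 (CLCC1) to -0.57 (VCP), and CASD1 fell 2.17-fold while CAT was 4.53-fold lower.

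None of the 8 nearest measured genes beside the enzymes on their chromosomes passed the test by the reported fit, which 7.34% of all genes did. Beside CAT on chromosome 11, ABTB2 differed by -0.05 and ELF5 by 0.30, and their adjusted p were 0.918 and 0.145 (limma). Beside TALDO1, on the same chromosome as CAT, EPS8L2 differed by -0.05 (0.831) and GATD1 by -0.47 (0.0658), and GATD1 passed with the replicate block (adjusted p = 0.0388, limma) and without siControl 3 (0.0239). SMIM18 (0.06, adjusted p = 0.799) and UBXN8 (0.27, 0.298) flank GSR, and SFMBT1 (0.39, 0.112) and DCP1A (0.46, 0.268) flank TKT on chromosome 3. SFMBT1 passed, as higher, with the replicate block (0.0421, limma).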

How the data were processed

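The 6 arrays carried 53617 probe sets, for each of which the authors deposited 1 value which is log2 by its range (1.26 to 13.4). The submitters' processing notes name Partek without a role or version. How arrays were normalized and summarised, and on which build, is not given in the sources used here. Platform annotation gave 16098 probe sets 1 gene symbol, all matched by gene ID to RefSeq (GRCh38.p14), and 37519 none. The brightest probe set stood for each gene, giving 14884 genes, with no filter on dim genes. Groups and replicate numbers came from the sample titles.

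limma 3.58.1 in R 4.3.3 (lmFit, eBayes, group as the only term) was fitted over all genes, two-sided, with Benjamini-Hochberg adjustment. A run on simulated arrays, drawn independently of each other, checked only the mean of the estimated differences. It says nothing of the error rate on the real arrays. Intervals are 95%. The 4 members, the lists and the motifs were chosen with earlier results of these data known. Genes named are the members, list genes past the threshold, up to 3 further bright genes per list with the largest differences, hub genes set in the design, genome neighbours and the 3 most alike genes per member. PIPOX lies outside this rule. Of 206 list genes 68 have no named probe set and were not analysed here. Promoter windows and RefSeq gene order came from RefSeq tables of GRCh38.p14.

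Same-numbered arrays deviated from their group means together across genes (r = 0.305, 0.187 and 0.321). This pairing was seen in the data and is not stated by the labels. The reported fit did not use it, so its p-values and intervals are unpaired. Among the fits, only the alternative called the replicate block treated equal numbers as pairs. Its adjusted p is given beside each named gene whose call it changes. Alternatives were 3 normalizations, 2 filters on dim genes, the mean of a gene's probe sets, the block, a trended and robust prior and leaving out each array.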

Additional observations from a re-analysis of the deposited data

How the results depend on the processing

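Each of CAT, GSR, TALDO1 and TKT was lower under all 14 alternatives, by less than 1 SD between replicates away from the value reported, and the direction of each of the 20 other list genes past the threshold was kept. Calls depended on the arrays. With 1 array left out, between 91 (siControl 2) and 2620 (siControl 3) genes were past the threshold, beside 1093 as reported, and between 1 and 4 of the 4 enzymes. With the replicate block 2348 genes passed and all 4 enzymes did. The number of enzymes past the threshold was 2 after quantile normalization. Falls were 89.1% of calls as reported, 76% with quantile normalization, 77.7% with cyclic loess and 89.7% with median centring. The median difference was 0.02 over all genes and -0.15 over the genes kept after the dimmer 50% were left out. The single named genes gave 183 calls lost and 57 gained over all settings, and the cause was not tested except that a fit without 1 array rests on fewer samples.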
